A study of Mus musculus with 3 samples.

Results

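The 40 genes of mitotic chromosome segregation and cell division described here were picked by name from the 33696 genes of the count tables, and cover the kinetochore, the spindle checkpoint, the chromosomal passenger complex, the mitotic kinases and cyclins with the anaphase-promoting complex, the spindle, cytokinesis, and chromosome structure. Kinesin genes were left out. All 40 were found by symbol, each in 1 row. The genes were compared across cycling endothelial cells (ECs), cycling microglia and cycling retinal progenitors of mice at postnatal day 6 (P6). Beads that bind CD31, a protein of ECs, and CD11b, a protein of microglia, were used to enrich these cells from dissociated retinas, and droplet single-cell RNA sequencing followed. There were 3 libraries, 1 per genotype, each from a pool of mice of that genotype on a C57BL/6 background: wild type (WT), *Tspan12* knockout (*Tspan12* KO) in all cells, and *Ctnnb1* conditional knockout (*Ctnnb1* cKO), in which *Ctnnb1* loxp/loxp is deleted by *Pdgfb*-iCre-ER after tamoxifen from postnatal day 1. *Pdgfb* drives the recombinase in ECs, so microglia and progenitors of that library were not the target of the deletion. The WT mice were no littermates of the knockout mice, and neither tamoxifen nor Cre is stated for the WT and *Tspan12* KO mice. With 1 library per genotype, genotype and library cannot be told apart. Over all ECs, *Tspan12* had 95.8 CPM (UMIs per 1000000 UMIs of a sum) in WT, 86.0 in the library labelled *Tspan12* KO and 40.2 in *Ctnnb1* cKO, and *Ctnnb1* had 524, 611 and 444 CPM. In the other classes *Ctnnb1* had 182, 188 and 121 CPM in microglia and 189.6, 179 and 164 CPM in progenitors. The counts come from the 3′ end of transcripts, and where the deletions lie is not given in the sources used here, so these levels do not check the labels. *Tspan12* KO and *Ctnnb1* cKO stand for the libraries labelled so throughout.

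A dividing cell attaches each pair of sister chromatids to spindle microtubules through the kinetochore, a protein assembly built on centromeric nucleosomes that carry the histone variant encoded by *Cenpa*. The spindle checkpoint holds the anaphase-promoting complex back until attachment is complete, after which cyclin B is degraded, the chromatids part, and a contractile ring divides the cell. Transcripts of these genes accumulate from S phase into G2 and M phase under the DREAM and MuvB complexes, which bind the cell-cycle genes homology region (CHR), often beside CCAAT boxes bound by NF-Y. In the retina of the first postnatal week ECs still divide to extend the vessels, microglia divide in place, and progenitors divide to give late-born neurons and glia.

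Since the members are known as genes with such promoters, their promoter windows were read first, from RefSeq on build GRCm38.p6, each with 250 bases before and 50 after a start site. A window was available for 35 of the 40 members, and the others were *Spc24*, *Aurkb*, *Incenp*, *Ccna2* and *Tpx2*. The letters TTTGAA or TTCGAA of a CHR, on either strand, stood in a window of 26 members, CCAAT on either strand in a window of 28, and both in 23. Over all 27025 genes with a window, 21.7% held a CHR, 41.1% a CCAAT box and 8.61% both. A CHR and a CCAAT box can share at most 1 letter at their ends. Of the members named most often by the rule for named genes, the stretches with both motifs before the start are shown for 6, with both kinds of motif in capitals (the first capital of *Ckap2l* is the end of a further CCAAT match):

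*Cdc20* (chr4:118437344-118437367, minus strand): ttgggtTTTGAAggagCCAATgaa
*Ckap2* (chr8:22185829-22185926, minus strand): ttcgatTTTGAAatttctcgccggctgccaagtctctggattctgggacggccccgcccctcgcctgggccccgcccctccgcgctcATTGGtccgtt
*Ckap2l* (chr2:129297216-129297248, minus strand): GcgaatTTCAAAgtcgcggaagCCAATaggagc
*Mki67* (chr7:135716466-135716526, minus strand): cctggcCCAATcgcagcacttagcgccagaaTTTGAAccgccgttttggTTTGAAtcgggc
*Ube2c* (chr2:164769866-164769911, plus strand): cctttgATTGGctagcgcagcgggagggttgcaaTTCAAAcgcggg
*Ccnb2* (chr9:70421565-70421727, minus strand): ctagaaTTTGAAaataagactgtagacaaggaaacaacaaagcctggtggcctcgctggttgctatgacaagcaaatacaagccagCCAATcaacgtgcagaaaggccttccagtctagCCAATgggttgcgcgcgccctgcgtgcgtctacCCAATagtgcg

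In *Cdc20* the CHR ended 13 bases before the start, and in *Ube2c* and *Ckap2l* 24 and 25 bases before it. A match of letters describes the sequence and is no measured binding.

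Clusters of cells were named by their markers as endothelial cell-like, microglia-like and retinal progenitor-like, and are called ECs, microglia and progenitors here. Cells were called cycling without use of the members. To set depths equal, 2000 UMIs (unique molecular identifiers, 1 per captured transcript) were drawn at random from each cell, and a cell with at least 3 UMIs over 45 other cell-cycle genes, 24 of G2/M and 21 of S phase, was cycling. WT gave 186 cycling ECs, *Tspan12* KO gave 81 and *Ctnnb1* cKO gave 412, or 35.8%, 31.3% and 21.9% of the ECs with 2000 UMIs or more. Cycling microglia numbered 32, 51 and 350 in the same order (13.4%, 16.3% and 19.6%), and cycling progenitors 347, 185 and 57 (80.1%, 66.8% and 49.6%). Depth differed between the libraries: the median cycling EC had 22365, 29547 and 5634 UMIs, the median cycling microglial cell 10200.5, 9471 and 4295, and the median cycling progenitor 7093, 4922 and 2875. Of the 465 *Ctnnb1* cKO progenitors, 350 had fewer than 2000 UMIs and were left out, against 32 of 465 in WT and 40 of 317 in *Tspan12* KO. Left out for the same reason were 18 of 538, 27 of 286 and 822 of 2706 ECs of WT, *Tspan12* KO and *Ctnnb1* cKO. For microglia these were 46 of 285, 55 of 368 and 346 of 2136. The cycling shares of the libraries thus rest on unlike selections of cells. The summed level of 9 endothelial markers was 5831 to 7504 CPM in cycling ECs and 607 or less in the other 2 cycling classes. That of 8 microglial markers was 15365 to 20078 CPM in cycling microglia and 598 or less in the other 2, and that of 8 progenitor markers 4348 to 5466 CPM in cycling progenitors against 571 or less in the other 2. In rods, used below as a background, the progenitor markers summed to 588, 680 and 1301 CPM and the microglial markers to 115, 86.5 and 632 in WT, *Tspan12* KO and *Ctnnb1* cKO. The leading genes of the progenitor cluster were, in order, *Esco2*, *H1f5*, *Neil3*, *Pbk*, *Gm12610*, *Depdc1a*, *Spc25*, *Fgf15*, *E2f8* and *Lockd*. Of these, *Fgf15* is one of the progenitor markers, and *Pbk* and *E2f8* are among the 45 genes of the cycling call. *Depdc1a* and *Spc25* are 2 of the members, although no member was used to build the clusters. This cluster was thus marked more by cell-cycle genes than by progenitor markers. The libraries shared 21 to 37 cell barcodes per pair.

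In the sums over cycling cells, the 40 members together made up 4655, 3449 and 4813 CPM of ECs in WT, *Tspan12* KO and *Ctnnb1* cKO. In microglia they made up 4674, 5425 and 6261 CPM, and in progenitors 11503, 9654 and 13165 CPM. The 3 progenitor values lay above all 6 others, while ECs and microglia overlapped. Cells of the same classes that were not called cycling had 1012, 935 and 639 CPM in ECs, 474, 295 and 504 CPM in microglia and 661, 1002 and 575 CPM in progenitors, and postmitotic rods, which should lack these transcripts, had 327, 346 and 756 CPM. The level of rods was taken as the background, and was highest in the *Ctnnb1* cKO library, whose rods also had the highest level of progenitor markers.

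**Figure D1:**
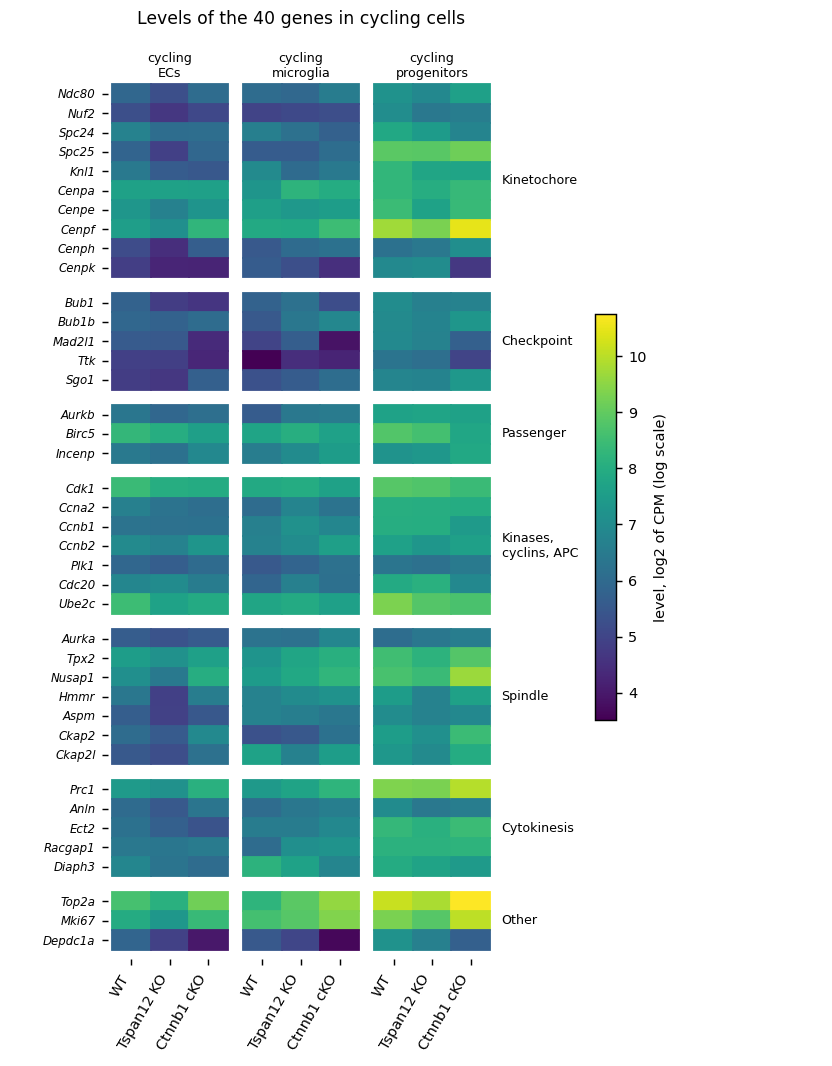
Levels of the 40 genes in the 9 sums of cycling cells (columns: 3 libraries in each of 3 classes; rows: genes by role; color: log2 of CPM). Progenitor columns are the brightest for most genes, *Top2a* reaches 1723 CPM in *Ctnnb1* cKO progenitors, and *Ttk* is the darkest at 11.4 CPM in WT microglia.

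Since the chemistry counts 1 end of each transcript, UMIs were not scaled by transcript length, and CPM was set side by side between genes. Whether transcripts of different genes are captured equally well was not examined. *Top2a*, which encodes the topoisomerase that untangles sister chromatids, had the highest mean level over the 9 sums, 729 CPM. Its levels in WT, *Tspan12* KO and *Ctnnb1* cKO were 395, 278 and 581 CPM in ECs, 300, 475 and 765 in microglia and 1122, 920.2 and 1723 in progenitors. After thinning to 2000 UMIs, 52.7%, 34.6% and 58.3% of the cycling ECs had a *Top2a* UMI, against 2.85%, 3.86% and 10.5% of the rods, whose median cell had 3771, 4471 and 4311 UMIs. *Mki67*, which codes for the Ki-67 coat protein of mitotic chromosomes, and *Cenpf*, which codes for a large outer kinetochore protein, followed at 487 and 482 CPM. The lowest means belonged to *Ttk*, the checkpoint kinase Mps1, at 34.6 CPM, to *Cenpk* of the inner kinetochore at 50.3 CPM, and to *Mad2l1*, the checkpoint protein that binds Cdc20, at 54.2 CPM. *Ttk* had 29.5, 29.1 and 19.6 CPM in ECs, 11.4, 22.2 and 18.8 in microglia and 78.8, 70.5 and 31.1 in progenitors. *Cenpk* had 28.4, 19.3 and 18.7 CPM in ECs, 48.6, 38.4 and 22.4 in microglia and 122, 129.7 and 25.9 in progenitors. *Mad2l1* had 47.7, 45.8 and 20.9 CPM in ECs, 31.4, 50.5 and 14.7 in microglia and 120.5, 104 and 51.9 in progenitors. For all 3 of these genes the *Ctnnb1* cKO progenitors lay below the other progenitor libraries.

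Cycling ECs had less of most members than cycling progenitors. Of the 40 members, 33 were lower in ECs and 0 were higher at an adjusted p under 0.05 (edgeR quasi-likelihood test over 9 sums with the library as a block), while 24.8% of the 11838 genes tested were lower and 31.5% higher. At an unadjusted p under 0.05 the counts were also 33 and 0, and DESeq2 gave 32 and 0. The median log2 difference was -0.99 over the members and 0.11 over all genes. Without TMM scaling the split of all genes was 2349 higher and 4817 lower in place of 3726 and 2930, the median of all genes moved by -0.47, and all 40 members were lower. By CPM, all 3 EC libraries lay below all 3 progenitor libraries for 36 members, which held for 36.1% of the genes tested. Without the library block 17 members were lower and 0 higher, while of the 11838 genes tested 2095 were lower and 2816 higher. Within S-weighted cells alone (more UMIs from the S-phase than from the G2/M genes of the cycling call), 7 members were lower and 7 higher. Of the 10270 genes tested there, 1934 were lower and 2313 higher. The medians were -0.17 over the members and 0.05 over all genes. The *Ctnnb1* cKO progenitors, with 9 such cells, were left out of that fit. Without doublet removal 10 were lower and 5 higher, while of the 13441 genes tested 3482 were lower and 4495 higher. The share of members that were lower was then near that of all genes. The progenitor class then held 926, 1350 and 497 cells in WT, *Tspan12* KO and *Ctnnb1* cKO in place of 465, 317 and 465, of which 52.0%, 30.1% and 36.5% were cycling.

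The largest difference lay in the Ndc80 complex, whose 4 subunits form the rod that grips microtubules. *Spc25* had 56.6, 29.4 and 59.9 CPM in ECs, 48.6, 48.5 and 67.7 in microglia and 478, 464 and 566 in progenitors. Every progenitor library was more than 6 times the highest value of the other classes, and the log2 difference to progenitors was -2.91 ± 0.19 (SE) in ECs (adjusted p = 1.60e-09) and -2.80 ± 0.22 in microglia (adjusted p = 1.69e-08). Over all settings tried it lay between -3.53 and -2.07 for ECs. Its partners differed less: the log2 difference of ECs to progenitors was -0.99 ± 0.16 for *Ndc80*, -1.24 ± 0.18 for *Nuf2* and -0.64 ± 0.17 for *Spc24*, with adjusted p of 5.67e-05, 2.03e-05 and 0.00423. The difference between the subunits was not tested. In progenitors not called cycling, *Spc25* had 52.7, 70.1 and 12.2 CPM, and in rods 8.82, 10.8 and 28.8 CPM. Within G2/M-weighted cells alone the *Spc25* difference of ECs to progenitors was -3.02 and within S-weighted cells alone -2.58.

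**Figure D2:**
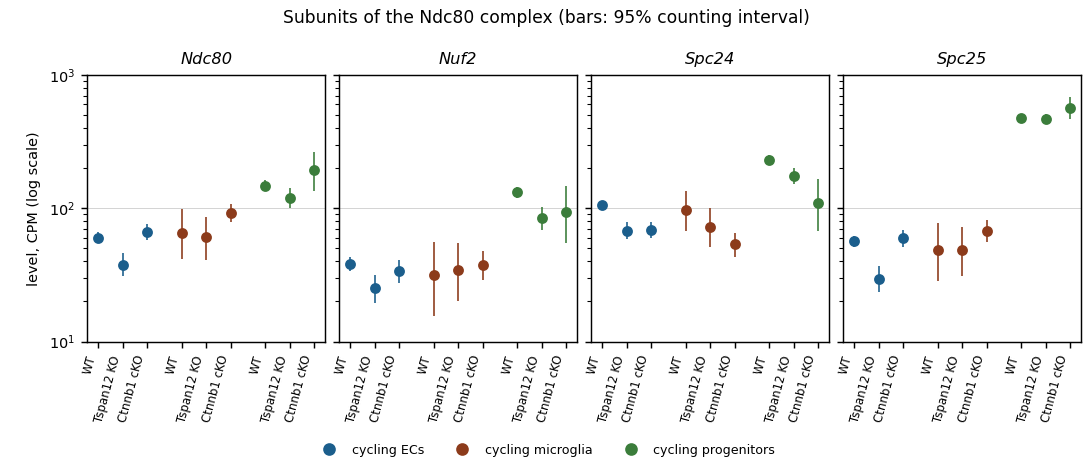
Levels of the 4 subunits of the Ndc80 complex (y axis: CPM, log scale) in cycling cells of each class and library (x axis), with 95% counting intervals as bars. *Spc25* stands at 464 to 566 CPM in progenitors and at 67.7 CPM or less in ECs and microglia.

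Of the 6 other kinetochore genes 5 were lower in ECs than in progenitors, and *Cenpa* did not pass, at -0.09 ± 0.18 (adjusted p = 0.683). *Cenpf* had 185, 135 and 305 CPM in ECs and 836, 624 and 1432 in progenitors, with no overlap, and a log2 difference of -1.70 ± 0.16 (adjusted p = 1.52e-07), which was -1.80 in G2/M-weighted and 0.45 in S-weighted cells alone. *Knl1*, the scaffold on which the checkpoint proteins gather, had 87.4, 48.3 and 44.8 CPM in ECs and 307, 219 and 213 in progenitors, a difference of -1.58 ± 0.16 (adjusted p = 3.88e-07). All 5 checkpoint and centromere genes were lower in ECs, from -0.63 for *Bub1b* to -1.44 for *Sgo1*, which shields centromeric cohesin. Of the 5 cytokinesis genes, 4 were lower. *Ect2*, the exchange factor that activates RhoA at the cell equator, had 74.6, 52 and 41.6 CPM in ECs and 320.5, 275 and 348 in progenitors, and its difference of -1.98 ± 0.18 (adjusted p = 1.23e-07) was the next largest after *Spc25*. *Anln*, an actin-binding protein of the ring, did not pass at -0.33 ± 0.20.

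The kinases and cyclins were split. *Ccna2* (-1.16 ± 0.17) and *Ccnb1* (-1.17 ± 0.18), the genes of cyclins A2 and B1, were lower in ECs, as were *Cdc20* and *Ube2c*, which activate and charge the anaphase-promoting complex (-0.495 and -0.43). *Cdk1* (-0.06 ± 0.16), *Ccnb2* (-0.08 ± 0.17) and *Plk1* (-0.03 ± 0.17) did not pass. Nor did *Birc5*, the survivin subunit of the passenger complex, at 0.02 ± 0.18, while *Aurkb*, its kinase, was lower at -1.08 ± 0.18. Of the 7 spindle genes 6 were lower, and *Aurka*, the kinase of spindle poles, was not called at -0.31 ± 0.18. *Top2a*, *Mki67* and *Depdc1a* were lower in ECs, at -1.10, -0.997 and -1.06.

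Cycling microglia were compared with progenitors in the same fit. In microglia 23 members were lower and 1 was higher, against 23.5% and 25.8% of all genes, with a median of -0.65 over the members and -0.02 over all genes. Without TMM the median of all genes moved by -0.36, their split went from 3052 higher and 2783 lower to 2311 and 4198, and 31 members were lower and 0 higher. Without doublet removal, in the larger progenitor class described above, 5 were lower and 8 higher, while of the 13441 genes tested 2931 were lower and 3496 higher. By CPM, 28 members did not overlap and were lower in microglia, which held for 34.3% of all genes. Beside *Spc25*, the members with the smallest p were *Ckap2*, *Prc1* and *Cenpf*. *Ckap2*, a microtubule-associated protein of the spindle, had 40, 44.4 and 73.6 CPM in microglia and 183, 138 and 348 in progenitors, a difference of -1.67 ± 0.20 (adjusted p = 2.31e-06). *Prc1*, which bundles the microtubules of the central spindle, had 169, 210.1 and 296 and 649, 624 and 991 CPM (-1.35 ± 0.17, adjusted p = 5.51e-06). *Cenpf* had 234, 230.3 and 359 CPM in microglia and differed by -1.36 ± 0.17 (adjusted p = 3.97e-06). *Aurka* was the member that was higher in microglia, with 77.1, 72.7 and 114 CPM against 67.5, 83.6 and 93.4: the WT microglia exceeded the WT progenitors and the *Tspan12* KO microglia did not exceed theirs. Its difference of 0.54 ± 0.21 had an adjusted p of 0.0413, and was -0.28 when cells were called without thinning. DESeq2 called 0 members higher in microglia. The spindle genes *Hmmr*, *Aspm* and *Ckap2l* had differences of 0.06, 0.05 and 0.26 and did not pass.

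ECs and microglia differed in fewer members. In ECs 12 of the 40 were lower and 2 higher than in microglia, against 21.6% and 26.2% of all genes. The share of members that were higher lay below that of all genes, and the share that were lower lay somewhat above theirs. The median difference was -0.30 over the members and 0.11 over all genes. Of the 12, 5 were spindle genes out of 7. *Ckap2l*, which codes for the spindle protein radmis, had 45.4, 37.4 and 72.5 CPM in ECs and 206, 101 and 184 in microglia, with no overlap, and a difference of -1.54 ± 0.19 (adjusted p = 3.86e-06). Cells not called cycling had 7.34, 10.03 and 9.74 CPM of *Ckap2l* in ECs and 151, 42.7 and 57.4 in microglia, against 2.15, 2.34 and 8.70 in rods, and no test was run on these values. *Aspm*, which organizes spindle poles, had 50.3, 30.2 and 44.8 against 103, 95 and 83.6 CPM (-1.05 ± 0.19, adjusted p = 2.05e-04). *Diaph3*, a formin that nucleates actin of the ring, had 115, 78.1 and 66.4 against 289, 204 and 112 CPM (-1.05 ± 0.18, adjusted p = 1.03e-04), and the lowest microglial value, in *Ctnnb1* cKO, lay below the WT ECs. *Mki67* had 245, 162 and 333 against 386, 461 and 662 CPM (-0.96 ± 0.18, adjusted p = 2.35e-04). The 2 members that were higher in ECs were *Ckap2*, with 66.1, 46.9 and 121 against 40, 44.4 and 73.6 CPM (0.66 ± 0.19, adjusted p = 0.00912), and *Cdc20*, with 114, 126 and 91.5 against 57.1, 99 and 71.8 CPM (0.57 ± 0.21, adjusted p = 0.0317). By CPM, 8 members were lower in ECs with no overlap, as were 22.3% of all genes. Without the *Tspan12* KO library 6 members were lower and 1 higher, while of the 12884 genes tested 2061 were lower and 2479 higher. The share of members that were lower was then near that of all genes. With 2 in place of 3 rule-gene UMIs for a cycling cell 5 were lower and 7 higher, while of 12644 genes 2849 were lower and 3504 higher. Within S-weighted cells alone 12 members were higher in ECs and 3 lower, while of the 10270 genes tested 2347 were higher and 1766 lower. *Aspm* and *Mki67*, at 0.33 and 0.06, were no longer lower there.

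**Figure D3:**
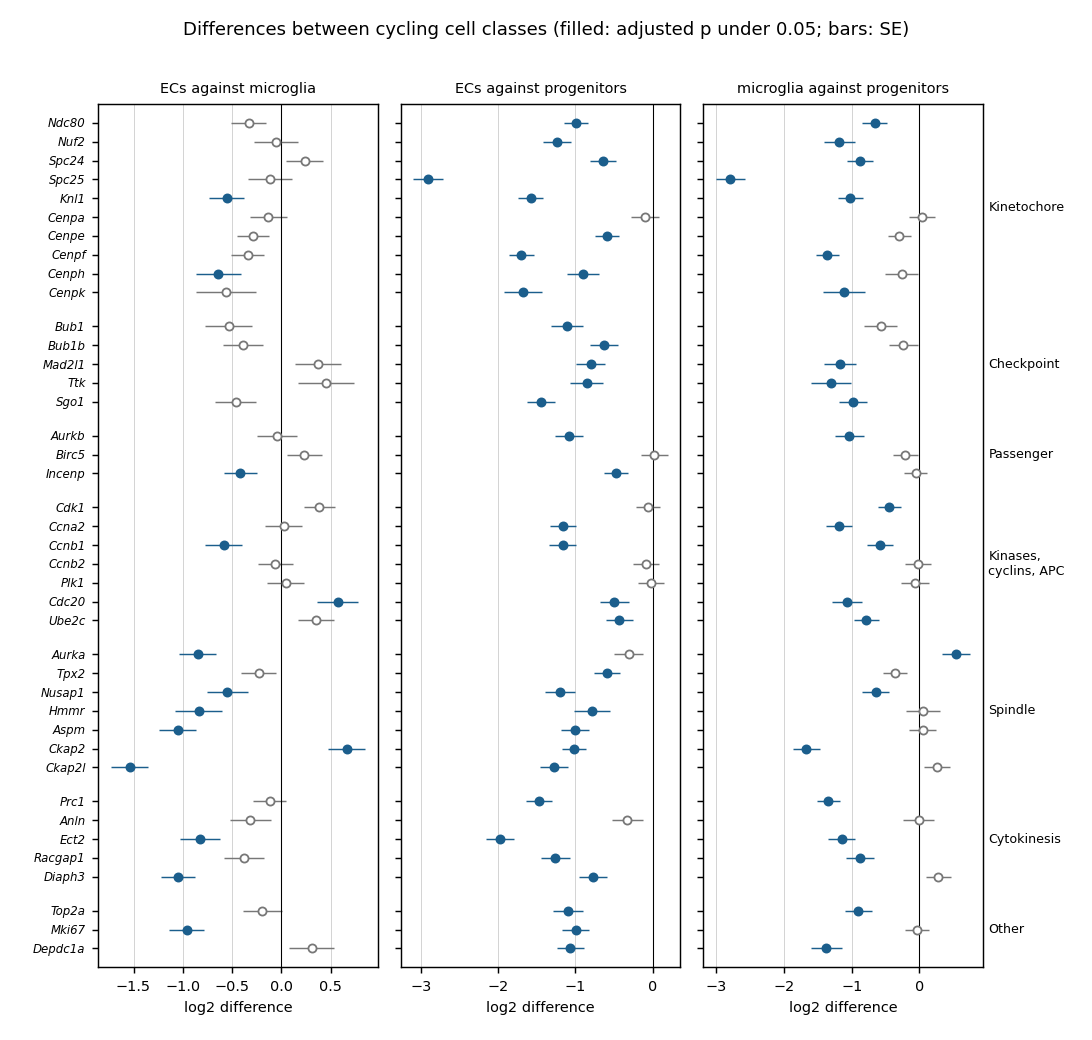
Log2 differences of the 40 genes between cycling cell classes (x axis), with SE as bars and filled points at an adjusted p under 0.05 (edgeR, 9 sums). Points of the middle and right panels lie mostly left of 0, and *Spc25* lies farthest left in both, at -2.91 and -2.80.

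A cell called cycling in one class may hold more cell-cycle RNA than one in another, so the classes were also compared per UMI of the 45 rule genes. The WT sums held 1.86 member UMIs per rule-gene UMI in ECs, 1.76 in microglia and 2.06 in progenitors. This quantity also differed between libraries. Its log2 ratio to WT in ECs, microglia and progenitors was -0.25, 0.07 and -0.22 in *Tspan12* KO and 0.19, 0.30 and 0.39 in *Ctnnb1* cKO. On this scale 13 members were lower and 5 higher in ECs than in progenitors, against 11.6% and 58.3% of all genes, and the median difference went from -0.99 to -0.29 over the members and from 0.11 to 0.85 over all genes. Of the 33 members that were lower by TMM, 7 were above 0 on this scale: *Spc24*, *Cenpe*, *Bub1b*, *Incenp*, *Cdc20*, *Ube2c* and *Tpx2*. The 5 that were higher were *Birc5* (0.74, adjusted p = 0.00103), *Plk1* (0.70), *Cdk1* (0.64), *Ccnb2* (0.64) and *Cenpa* (0.61). *Spc25* (-2.22, adjusted p = 3.42e-08), *Ect2* (-1.28), *Cenpf* (-1.02) and *Knl1* (-0.87) stayed lower. Microglia against progenitors gave 13 lower and 7 higher, against 13.6% and 39.7% of all genes, led by *Spc25* at -2.32 and *Aurka* at 1.05. ECs against microglia gave 7 lower and 5 higher, against 16.9% and 32.4% of all genes, with *Ckap2l* at -1.36 and *Ckap2* at 0.87. The kinases, cyclins and anaphase-promoting complex genes took 25.2%, 26% and 19.5% of all member UMIs in ECs of WT, *Tspan12* KO and *Ctnnb1* cKO against 18.6%, 19.7% and 11.9% in progenitors, higher in ECs within each library. The kinetochore genes took 20.6%, 20% and 20.7% in ECs and 25.9%, 24.5% and 26.1% in progenitors, lower in ECs within each library.

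Of 42 further genes of the same machinery, chosen as a list apart from the members, 23 were lower and 1 higher in ECs than in progenitors, 16 lower and 2 higher in microglia than in progenitors, and 8 lower and 5 higher in ECs than in microglia. Over all genes tested these shares were 24.8% lower and 31.5% higher, 23.5% and 25.8%, and 21.6% and 26.2%, so that the share of the list that was lower in ECs than in microglia was near that of all genes. The median differences were -0.65, -0.47 and -0.12. *Cenpp*, of the inner kinetochore, had 87.7, 49.1 and 59.6 CPM in ECs and 306, 256 and 409.9 in progenitors (-1.77 ± 0.19, adjusted p = 6.45e-07). *Ccdc34* had 158, 114 and 219 CPM in ECs, 91.4, 95 and 198 in microglia and 545, 421 and 861 in progenitors, and its difference to progenitors was -1.39 ± 0.16 in ECs and -1.84 ± 0.17 in microglia (adjusted p = 1.16e-06 and 1.79e-07). *Stmn1*, a protein that takes microtubules apart and that young neurons also make, had 1029, 689 and 532 CPM in microglia and 2982, 2371 and 1837 in progenitors (-1.30 ± 0.15, adjusted p = 2.23e-06). Between ECs and microglia, *Cdc26*, a small subunit of the anaphase-promoting complex, was higher in ECs, with 112, 139 and 87.3 against 60, 90.9 and 43.6 CPM (0.93 ± 0.18, adjusted p = 3.16e-04). *Zwilch*, which recruits dynein to the kinetochore, was lower in ECs, with 22.8, 20 and 16.4 against 45.7, 46.5 and 38.9 CPM (-1.06 ± 0.21, adjusted p = 4.40e-04).

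To place the members within the cycle, cycling cells with more UMIs from the G2/M rule genes than from the S rule genes were compared with those that had fewer. The G2/M-weighted share was 59.1%, 51.9% and 49.3% of cycling ECs, 53.1%, 52.9% and 62.3% of microglia and 63.7%, 66.5% and 80.7% of progenitors. The progenitor fit used the WT and *Tspan12* KO libraries alone, since the *Ctnnb1* cKO sum of S-weighted progenitors held 9 cells and 10 were required. In ECs 25 of 40 members were higher in G2/M-weighted cells and 0 lower, against 0.894% of 9839 genes that were higher. At an unadjusted p under 0.05 the counts were 33 and 2, and DESeq2 gave 16 and 0. In microglia 24 of the 36 members tested were higher, against 1.56% of 4365 genes, and *Cenpk*, *Mad2l1*, *Ttk* and *Depdc1a* were too low to be tested. In progenitors 37 were higher and 1 lower, against 4.83% and 5.12% of 9127 genes, and DESeq2 gave 28 and 0. The median member difference was 0.61 in ECs, 1.503 in microglia and 1.53 in progenitors, and the difference between classes was not tested. The median cycling EC of the WT and *Tspan12* KO libraries held over 10 times the UMIs used for the split. Within 1 UMI of the cut between the phases, ties included, lay 63 of 186, 27 of 81 and 144 of 412 cycling ECs. For microglia these were 8 of 32, 8 of 51 and 86 of 350, and for WT and *Tspan12* KO progenitors 42 of 347 and 22 of 185. The part of depth and of cells near the cut in the size of these differences was not tested. All 7 genes of the kinases, cyclins and anaphase-promoting complex and all 7 spindle genes were higher in ECs and in progenitors. In microglia the 24 calls were all kept without WT, with 30 of 38 members called, and depended on both knockout libraries: without *Tspan12* KO or without *Ctnnb1* cKO, edgeR called 0 genes at all, while 36 of 37 and 29 of 32 members tested stayed above 0, and 26 and 19 had an unadjusted p under 0.05.

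In ECs the largest differences belonged to *Ccnb1*, *Plk1* and *Cdc20*. *Ccnb1* had 103, 99.4 and 104 CPM in G2/M-weighted ECs of WT, *Tspan12* KO and *Ctnnb1* cKO and 35.9, 37 and 47.2 in S-weighted ones (1.36 ± 0.13, adjusted p = 3.35e-07). *Plk1*, a kinase that acts from mitotic entry to cytokinesis, had 74.6, 67.2 and 90 and 34.6, 18.9 and 34.4 CPM (1.32 ± 0.15). *Cdc20* had 148, 156 and 139.9 and 62.8, 66.8 and 46.4 CPM (1.31 ± 0.12). These 3 genes were higher in every library with no overlap between the phases. In microglia *Ube2c* led, with 282, 390 and 303 CPM against 40.6, 35.4 and 18.8 (3.54 ± 0.28, adjusted p = 1.06e-05), then *Plk1* with 59.7, 99.3 and 105 against 6.77, 0 and 13.2 (3.38 ± 0.45) and *Ccnb2* with 125, 209.7 and 276 against 47.4, 5.06 and 32 (2.998 ± 0.36). The S-weighted microglia were 13, 22 and 113 cells, and *Plk1* had 0 UMIs in those of *Tspan12* KO. In progenitors the largest differences were those of *Cenpa*, with 435 and 376 CPM in WT and *Tspan12* KO against 20.1 and 27.2 (4.25 ± 0.21, adjusted p = 9.95e-25), *Ube2c*, with 906 and 639 against 49 and 54.3 (4.04 ± 0.17), and *Cenpf*, with 1156 and 884 against 116 and 78.4 (3.41 ± 0.15). *Cenpa* had 132, 107 and 103 CPM in S-weighted ECs and at most 27.2 CPM in S-weighted progenitors of these 2 libraries, while the G2/M-weighted levels were 241, 269 and 284 in ECs.

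At the other end stood the inner kinetochore genes *Cenph* and *Cenpk*, whose products sit on the centromere through the whole cycle. *Cenph* had 49.9 and 75 CPM in G2/M-weighted and 134 and 109 CPM in S-weighted progenitors and was the member that was lower (-1.08 ± 0.19, adjusted p = 2.09e-05). In ECs it had 33.2, 19.9 and 46 against 45.3, 23.5 and 53.2 CPM (-0.35 ± 0.15, adjusted p = 0.407), and in microglia 16.3, 66.2 and 61.3 against 88, 70.8 and 94.1 CPM (-0.71 ± 0.32, adjusted p = 0.444). The S-weighted value was the higher one in each library of ECs and microglia, but neither difference passed the test. *Cenpk* had 23.2, 19.2 and 18.8 against 38.9, 18.9 and 18 CPM in ECs (-0.42 ± 0.20) and 109 and 137 against 138 and 112 in progenitors (-0.09 ± 0.17). *Mad2l1* was next in ECs, with 48.2, 50.7 and 25.3 against 49.1, 35.2 and 17.2 CPM (0.21 ± 0.16). *Diaph3* was the third lowest in progenitors, with 252 and 185 against 235 and 247 CPM (-0.04 ± 0.14). In microglia *Ckap2l* had 130.3, 125 and 239 against 291, 75.9 and 97.9 CPM (0.45 ± 0.34), and *Ndc80* 48.9, 51.5 and 114 against 81.2, 65.8 and 41.4 CPM (0.55 ± 0.38), and for both the WT library, with 13 S-weighted cells, ran against the *Ctnnb1* cKO library. None of these 6 differences passed. By promoter, the 23 members with both a CHR and a CCAAT box had a median phase difference of 0.84 in ECs, 1.81 in microglia (21 tested) and 1.76 in progenitors, and the 12 members with a window but not both had 0.27, 1.33 (10 tested) and 1.25. A CCAAT box and no CHR letters stood in the windows of *Cenph*, *Cenpk*, *Diaph3*, *Cenpe* and *Ccnb1*, and *Ccnb1* had the largest phase difference in ECs. *Nuf2*, *Mad2l1*, *Birc5* and *Nusap1* had neither motif, and all of them were higher in G2/M-weighted progenitors.

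**Figure D4:**
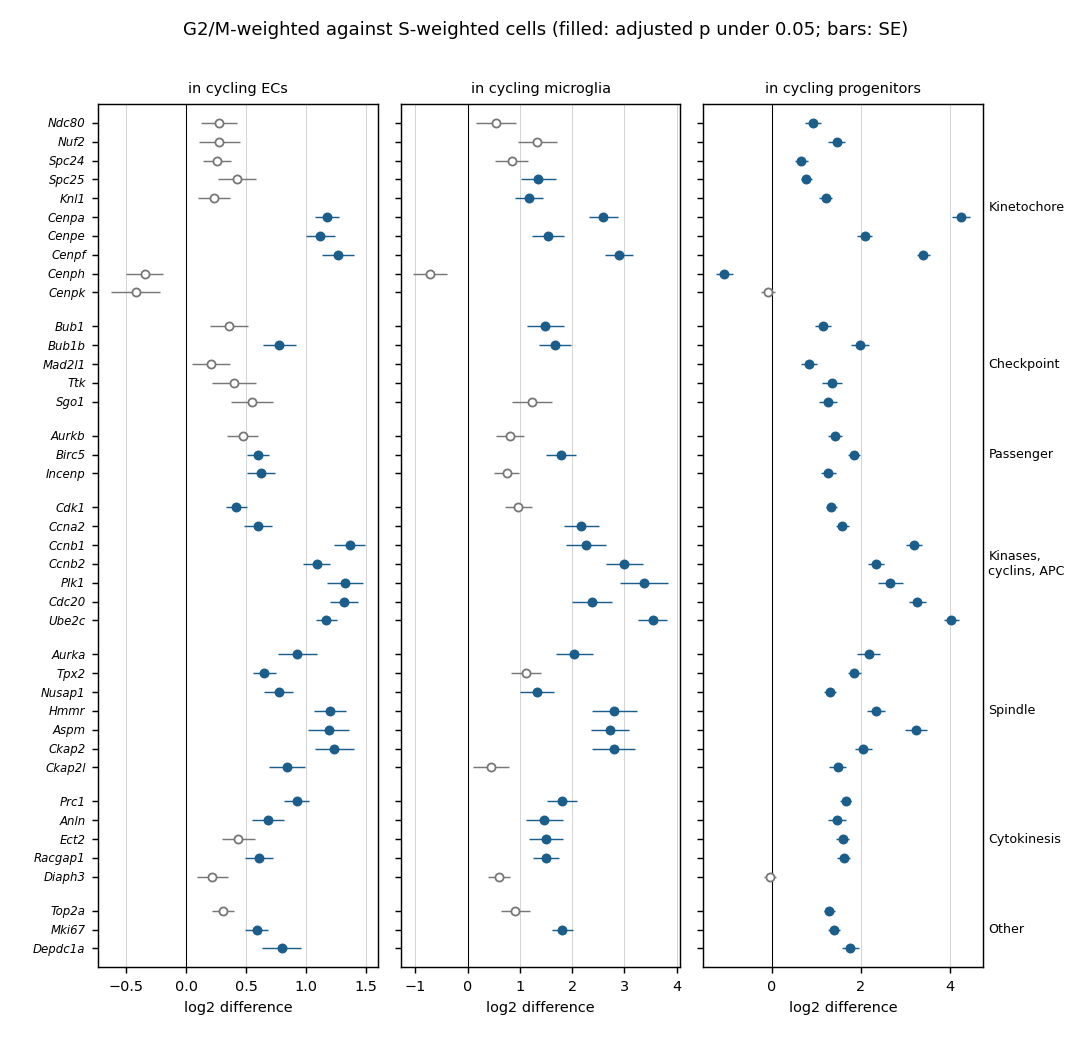
Log2 differences between G2/M-weighted and S-weighted cycling cells (x axis) for the 40 genes in each class, with SE as bars and filled points at an adjusted p under 0.05 (edgeR). *Cenpa* lies farthest right in progenitors at 4.25, *Cenph* lies left of 0 in all 3 panels, and each panel has its own x scale.

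The knockout libraries were set against WT as log2 ratios of CPM. With 1 library per genotype there is no replicate check and no test, and the intervals, exact and at 95%, cover counting error only. Both comparisons use the same WT library. Members were counted where both libraries together held at least 50 UMIs. In cycling ECs the summed members were lower in the library labelled *Tspan12* KO than in WT, with a log2 ratio of -0.43 (-0.47 to -0.40). The intervals of 28 members lay below 0, of 0 above 0 and of 12 on both sides, against 19.2% of 10395 genes below and 18.1% above, and the median was -0.47 over the members and -0.01 over all genes. A log2 ratio of 1 or more in size was reached by 1 member and by 5% of all genes. That member was *Hmmr*, a spindle protein that binds hyaluronan outside the cell, at 29.8 CPM against 83, or -1.48 (-1.83 to -1.14). It was followed by *Bub1*, the checkpoint kinase, at 27.6 against 54.2 CPM, or -0.97 (-1.35 to -0.62), and *Spc25* at 29.4 against 56.6 CPM, or -0.94 (-1.30 to -0.59). The highest ratios were those of *Cdc20*, 0.14 (-0.05 to 0.32), *Cenpa*, -0.005 (-0.15 to 0.14), and *Ttk*, -0.02 (-0.41 to 0.36), at 126, 201 and 29.1 CPM against 114, 202 and 29.5 in WT, all with intervals on both sides of 0. The summed ratio stayed below 0 in all settings tried, from -0.59 in S-weighted cells to -0.25 per rule-gene UMI. The G2/M-weighted share of the cycling ECs was 51.9% against 59.1%, with intervals of 40.5 to 63.1% and 51.7 to 66.3%, and the ratio within each phase was -0.38 in G2/M-weighted and -0.59 in S-weighted ECs. Of the 81 *Tspan12* KO cells 70 and of the WT cells all 186 were of the same EC cluster.

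In *Ctnnb1* cKO the summed members of cycling ECs had a log2 ratio to WT of 0.05 (0.02 to 0.08), and single members went both ways. The intervals of 15 members lay below 0 and of 12 above 0, against 34.7% and 20.9% of 10511 genes, and 3 members passed a log2 ratio of 1 in size, against 15.5% of all genes. The 3 were *Depdc1a*, whose product is needed in mitotic progression, at 15.8 CPM against 57.4, or -1.86 (-2.32 to -1.43), *Mad2l1* at 20.9 against 47.7 CPM, or -1.19 (-1.59 to -0.80), and *Bub1* at 24.8 against 54.2 CPM, or -1.13 (-1.500 to -0.77). The highest ratios were those of *Nusap1*, a spindle microtubule protein, at 261 against 136 CPM, or 0.94 (0.81 to 1.08), *Sgo1* at 52.5 against 27.7 CPM, or 0.92 (0.61 to 1.23), and *Ckap2* at 121 against 66.1 CPM, or 0.88 (0.68 to 1.08). The sign of the summed ratio depended on the setting, as it was 0.26 in G2/M-weighted and -0.22 in S-weighted cells, and -0.66 over all ECs, cycling or not. The cells also differed in other measures: the median cycling EC had 5634 UMIs against 22365, and 360 of the 412 *Ctnnb1* cKO cells were of an EC cluster that held no WT cycling cell, while all WT cells were of another. The leading genes of the first cluster were, in order, *Hmcn1*, *Piezo2*, *Palmd*, *Prnd*, *Ctla2a*, *Ifi44*, *Lef1*, *Gm32688*, *Isg15* and *Ifit1*. Of these, *Ifi44*, *Isg15* and *Ifit1* are genes of the interferon response. The part of depth and of cluster in the ratios was not tested.

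**Figure D5:**
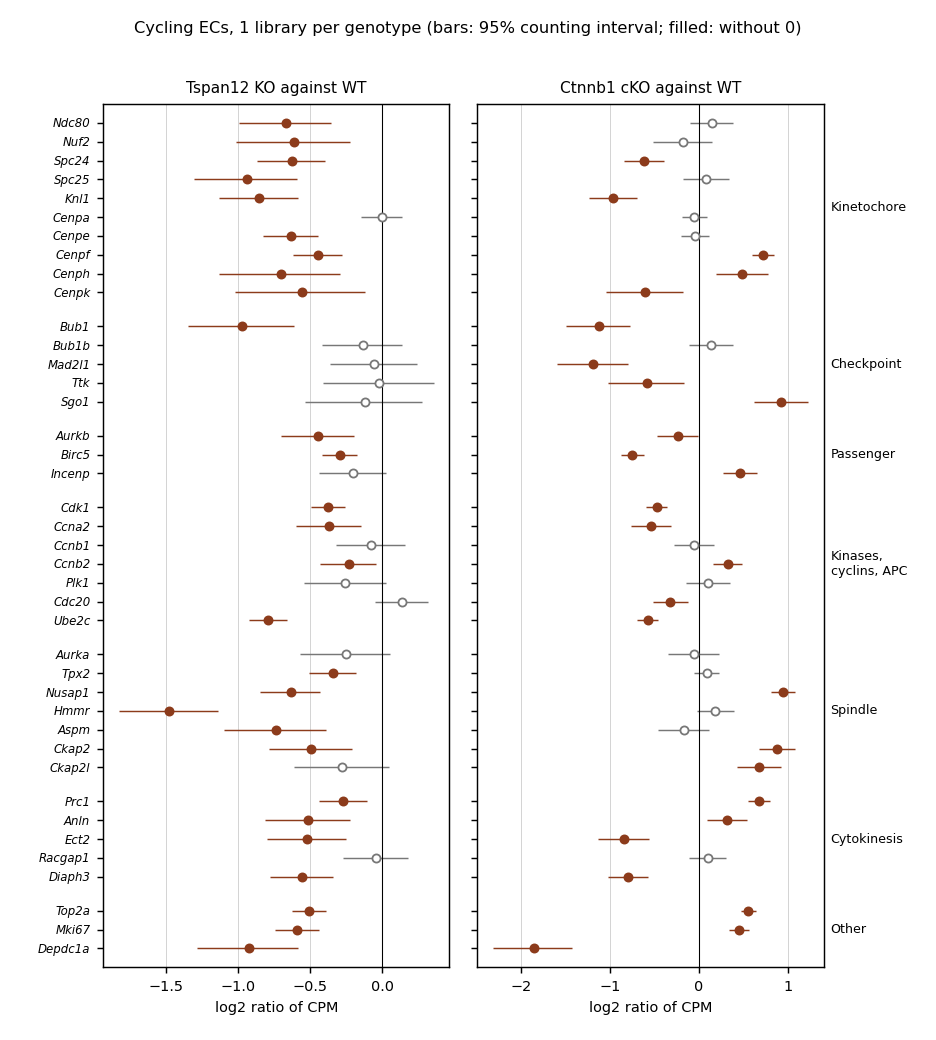
Log2 ratios of CPM in cycling ECs (x axis) of each knockout library to WT for the 40 genes, with 95% counting intervals as bars and filled points where the interval leaves out 0. In *Tspan12* KO nearly all points lie left of 0, down to -1.48 for *Hmmr*, while in *Ctnnb1* cKO they spread from -1.86 for *Depdc1a* to 0.94 for *Nusap1*, and the panels have separate x scales.

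The same members were read in *Ctnnb1* cKO microglia and progenitors, in which *Ctnnb1* was not targeted. *Nusap1* had 0.82 (0.43 to 1.22) in microglia and 1.03 (0.78 to 1.27) in progenitors, and *Ckap2* 0.88 (0.08 to 1.79) and 0.92 (0.53 to 1.29). *Top2a* had 0.56 (0.47 to 0.64) in ECs, 1.35 (1.06 to 1.65) in microglia and 0.62 (0.45 to 0.78) in progenitors. By their intervals, these 3 genes lay above WT in each class of the *Ctnnb1* cKO library. *Sgo1* had 0.75 (-0.06 to 1.66) and 0.57 (-0.002 to 1.10), with intervals on both sides of 0. *Depdc1a* had -1.89 (-2.89 to -0.85) in microglia, on fewer than 50 UMIs, and -1.502 (-2.57 to -0.61) in progenitors, and *Mad2l1* -1.09 (-2.17 to 0.08) in microglia, also on fewer than 50 UMIs, and -1.22 (-2.29 to -0.32) in progenitors. *Cenpk* was at -0.60 (-1.05 to -0.18) in ECs, -1.12 (-1.98 to -0.20) in microglia and -2.23 (-3.86 to -0.99) in progenitors. *Depdc1a*, with fewer than 50 UMIs in microglia, and *Cenpk* thus lay below WT by their intervals in each class. The members of this comparison were picked after their values were seen, and the share of all genes with the same sign in each class was not computed. *Bub1* had -0.57 (-1.33 to 0.25) in microglia and -0.32 (-1.05 to 0.33) in progenitors, with intervals on both sides of 0. *Ect2* had -0.84 (-1.13 to -0.57) in ECs, 0.39 (-0.16 to 0.97) in microglia and 0.12 (-0.26 to 0.48) in progenitors. Whether the ratios differ between classes was not tested.

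In *Ctnnb1* cKO microglia the summed ratio was 0.42 (0.35 to 0.498), with the intervals of 13 of 37 members counted above 0 and of 3 below, against 18.1% and 17.9% of 6105 genes. In progenitors it was 0.19 (0.14 to 0.25), with 9 of 40 above and 12 below, against 9.07% and 11% of 8229 genes. In *Tspan12* KO microglia the summed ratio was 0.21 (0.13 to 0.30), with 6 of 30 members above 0 and 3 below, against 11.2% and 10.9% of 3237 genes. In *Tspan12* KO progenitors it was -0.25 (-0.28 to -0.22), with 1 of 40 above and 23 below, against 9.92% and 12% of 9008 genes. In *Tspan12* KO progenitors the ratio stayed below 0 in all settings tried, from -0.96 with no doublet removal to -0.083 in S-weighted cells alone. The interval of the latter, -0.17 to 0.005, lay on both sides of 0. The signs of the other ratios depended on the setting. In *Tspan12* KO microglia the ratio turned to -0.11 at 1000 UMIs, to -0.16 at 5 or more rule-gene UMIs and to -0.54 in S-weighted cells alone. In *Ctnnb1* cKO microglia it ran from -0.81 in S-weighted cells alone to 1.69 with no thinning, and in *Ctnnb1* cKO progenitors it turned to -0.057 with all variable genes and to -1.25 over all cells of the class. In *Tspan12* KO progenitors *Hmmr* was again the lowest, at -0.80 (-1.10 to -0.51), while *Bub1* had -0.38 (-0.70 to -0.08) and *Spc25* -0.04 (-0.19 to 0.10). WT microglia were 32 cycling cells with 1636 member UMIs in all, which is the least precise of the WT sums. Of the *Ctnnb1* cKO microglia 347 of 350 were of a cluster without WT cycling cells, led in order by *Cd300lf*, *G530011O06Rik*, *Il1b*, *Spp1* and *Ccl4*.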

How the data were processed

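Single-cell RNA sequencing measured 3 libraries of P6 retinal cells, 1 per genotype. The authors aligned reads with Cell Ranger and deposited raw UMI counts per gene and cell, which sum to 92684519, 137114957 and 37008362 for WT, *Tspan12* KO and *Ctnnb1* cKO. The submitters' processing notes give Cell Ranger 8.0.1 and GRCm39, while the methods of the study name another release and an mm10 reference, so the build is not settled and no coordinate was taken from the counts. Promoter windows came from RefSeq (GRCm38.p6).

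Cells with at least 500 UMIs, 250 genes and at most 15% mitochondrial UMIs were kept, predicted doublets (0.8% per 1000 cells) were removed, and 30172 cells were clustered (scanpy 1.11.5, leidenalg 0.10.2) on 2000 variable genes without 312 cell-cycle genes. UMIs of cycling cells were summed per class and library, with at least 10 cells a sum. Sums were tested with edgeR 4.0.16 (quasi-likelihood test, TMM, filterByExpr, library as a block, two-sided, Benjamini-Hochberg adjustment over all genes tested, called under 0.05). Replicates in these tests are the 3 libraries, which differ in genotype, so p-values measure the spread over them. CPM and the log2 ratios between genotypes were computed per total UMIs of a sum, with exact intervals at 95%. On simulated data, the class fits recovered 58.1 to 63.5% of genes changed by a log2 of 1, and 91.6 to 100% at a log2 of 2. The simulated sums had the same dispersion for all genes and differed between libraries in their totals alone. Recovery in the real libraries, which also differ in genotype, may be unlike this.

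The members, the lists and the tests were chosen with earlier results of these data known. Members given with the value in every library were, per class contrast, the 4 called with the smallest p in each direction, per phase contrast and per knockout in ECs the 3 with the largest and the 3 with the smallest difference, and the 3 highest and the 3 lowest by mean level. From the list of 42 further genes, the 2 called with the smallest p per class contrast were named. The Ndc80 subunits, and the members read in *Ctnnb1* cKO microglia and progenitors, were added after their values were seen. Promoter stretches were taken from the members named most often, with the motifs searched in the 250 bases before the start. Alternatives were total UMIs without TMM, DESeq2 1.42.0, no filter, no block, other thinning depths, cycling thresholds and panels, no doublet removal, clustering with all variable genes, and each library left out. Scaling per rule-gene UMI in the class fits, and each phase alone, were added after seeing the data. All 3 libraries were used, and *Cenpk*, *Mad2l1*, *Ttk* and *Depdc1a* were left out of the phase fit in microglia by the filter.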

Additional observations from a re-analysis of the deposited data

How the results depend on the processing

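Of 75 alternative counts of members called, 59 stayed within 1.5 times the count reported and in its direction. Of 396 alternative differences of named genes, 351 kept their direction and their side of the threshold, 34 lost the call, 3 gained it and 8 changed sign. The causes of the changes were not tested. ECs against microglia gave 14 members, but 5 with no library block, 6 with no thinning, 12 (7 higher, 5 lower) at 2 or more rule-gene UMIs, 9 in G2/M-weighted cells alone, 15 (12 higher, 3 lower) in S-weighted cells alone, and 7 to 12 with a library left out. ECs against progenitors gave 33, but 17 with no library block and 15 (5 higher, 10 lower) with no doublet removal. Per rule-gene UMI there were 18 (5 higher, 13 lower), and in S-weighted cells alone 14 (7 higher, 7 lower). Microglia against progenitors gave 24, but 13 (8 higher, 5 lower) with no doublet removal and 8 in S-weighted cells alone. By phase, DESeq2 called 16 in ECs and 12 in microglia in place of 25 and 24, and leaving out a library gave 0 to 30 in microglia. In S-weighted cells alone *Aspm* (0.33) and *Mki67* (0.058), ECs against microglia, and *Cenpf* (0.45), ECs against progenitors, changed sign, as did *Aurka* (-0.28), microglia against progenitors, with no thinning. With a library left out, the phase difference of *Cenpk* in ECs ran from -0.57 to 0.027 (without WT), and in microglia those of *Ckap2l* from -0.33 to 1.14 and of *Ndc80* from -0.53 to 0.95, each lowest without *Ctnnb1* cKO. It also changed sign for *Diaph3* (0.14) in progenitors thinned to 4000 UMIs.

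The summed log2 ratios to WT follow in the order *Tspan12* KO ECs, microglia, progenitors, then *Ctnnb1* cKO ECs, microglia, progenitors, and values within 1 interval of the reported one are left out. Thinned to 1000 UMIs they were -0.34, -0.11, -0.29, 0.16, 0.060 and 0.0072. Thinned to 4000 UMIs they were -0.38 and 0.48 in *Tspan12* KO ECs and microglia, and -0.086, 0.87 and 0.092 in *Ctnnb1* cKO. With no thinning they were -0.35, 0.82, -0.32, 0.082, 1.69 and 0.018. With no doublet removal they were -0.49, 0.030, -0.96, 0.0059, 0.093 and 0.40. Per rule-gene UMI they were -0.25, 0.067, -0.22, 0.19, 0.30 and 0.39. At 2 or more rule-gene UMIs they were 0.50 and -0.30 in *Tspan12* KO microglia and progenitors and -0.030, 0.89 and 0.12 in *Ctnnb1* cKO. At 5 or more they were -0.16 in *Tspan12* KO microglia and 0.24 and 0.031 in *Ctnnb1* cKO ECs and microglia. With the G2/M panel alone they were -0.26 and -0.20 in *Tspan12* KO ECs and progenitors, and 0.28 and 0.12 in those of *Ctnnb1* cKO. With equal weight per cell they were -0.56 and -0.11 in *Tspan12* KO ECs and progenitors, and -0.094 and 0.29 in those of *Ctnnb1* cKO. Over all cells of the class they were -0.47 in *Tspan12* KO progenitors and -0.66, 0.83 and -1.25 in *Ctnnb1* cKO. In G2/M-weighted cells they were -0.38 and 0.56 in *Tspan12* KO ECs and microglia, and 0.26, 0.74 and 0.061 in *Ctnnb1* cKO. In S-weighted cells they were -0.59, -0.54, -0.083, -0.22, -0.81 and 0.0018. TMM-scaled totals gave 0.15, 0.55 and 0.095 in *Ctnnb1* cKO. Clustering with all variable genes gave -0.45 and -0.057 in the progenitors of *Tspan12* KO and *Ctnnb1* cKO.

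Microglia by phase at 1000 UMIs, and progenitors by phase without WT or without *Tspan12* KO, were not run because too few sums held 10 cells. No paired analysis was possible beyond the library block because each genotype has 1 library. The smallest sums, WT and *Tspan12* KO microglia and *Ctnnb1* cKO progenitors, held 32, 51 and 57 cycling cells.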
